A study of Mus musculus with 4 samples.

Results

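Interferon-inducible genes were examined in cultured mouse CD4+ T cells that had received TGFb1 with or without progesterone. The set held 34 genes that were chosen by name. Of these, 25 were listed as genes of the type I interferon response and 7 as GTPases induced by interferon gamma. The other 2, Irf1 and Tap1, were listed as induced by both kinds of interferon. The classes are not exclusive, and a gene may also respond to the interferon of another class. Each gene was read from its probe set with the highest mean over the 4 arrays, among probe sets that carry 1 gene symbol. Of the 34 genes, 28 could be tested, among 10501 genes tested in all.

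The samples were naive CD4+ T cells, taken from spleen together with peripheral and mesenteric nodes. They were kept for 7 days in RPMI medium with 10% serum and 2.5 ug/ml of concanavalin A, a lectin that stimulates T cells. All samples received hTGFb1 at 1 ng/ml, and the second group also received progesterone at 2000 ng/ml. Each group had 2 arrays, and no sample without TGFb1 is among them. Strain, age and sex are not given in the labels. The labels also do not say whether the 2 samples of a group came from separate animals or cultures, so p-values cover the spread between these arrays alone, and that spread may be technical.

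Type I interferons bind the receptor made of Ifnar1 and Ifnar2 and act through a complex that holds Stat2 and Irf9 and binds the interferon-stimulated response element. Interferon gamma binds the receptor made of Ifngr1 and Ifngr2 and acts on genes through the gamma activated site. Interferon gamma strongly induces the immunity-related GTPases (IRG proteins) and the guanylate-binding proteins (GBP), which act against parasites and bacteria that live in vacuoles inside cells. Among the IRG proteins, Irgm1, Irgm2 and Igtp regulate the others and protect the cell's own membranes, while Iigp1 and Ifi47 belong to the effector type.

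Array values are signal intensities, and a difference is that of log2(signal + 16) after quantile normalisation, progesterone group minus TGFb1 alone, which understates the change of dim genes. Every adjusted p is limma's, adjusted by Benjamini-Hochberg over all 10501 genes, and a gene was counted as risen or fallen where it was under 0.05. At this threshold 857 genes changed (8.16%), of which 314 rose (2.99%) and 543 fell (5.17%). Trimmed mean signals ran from 107.7 to 154.5 over the arrays, and across genes the arrays of a group correlated at 0.982 and 0.985, against 0.937 to 0.961 between groups. The groups also differed in sex-chromosome genes. Xist, the RNA of the inactive X chromosome, had signals of 9.52 and 9.70 with TGFb1 alone and 1390 and 825 with progesterone, while the Y-linked gene Eif2s3y had 689 and 727 against 4.25 and 0.492. The sex-chromosome makeup of the cells and the progesterone treatment therefore cannot be told apart in any result here. T cell markers summed to 35900 to 38060 on all arrays after normalisation, with 0 of 10 past the limma test (5 at an unadjusted p under 0.05). In such bulk samples, fewer cells of a type and less RNA per cell cannot be told apart.

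All 5 IRG genes rose with progesterone after quantile normalisation, by 0.38 to 0.78 on the log2 scale, but none of the 5 passed with the signals as deposited, where Igtp gave -0.03, or with arrays centred on their median, where Irgm2 gave -0.01 and Igtp -0.15. At an unadjusted p under 0.05 the count was also 0 of 5 under both of those scalings. Both GBP genes of the set, Gbp2 and Gbp3, were higher on average but did not pass the test, and with centring they gave -0.04 and -0.13. The 7 GTPases together had a median difference of 0.50, against 0.02 over all genes tested, with 5 risen and 0 fallen (limma, 0 also at an unadjusted p under 0.05), where 2.99% of all genes rose. The arrays of the 2 groups did not overlap for 5 of the 7, each time with progesterone higher, as they did for 29.8% of all genes.

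Irgm1, a regulator that is needed for resistance to several intracellular pathogens, had normalised signals of 801 and 762 with TGFb1 alone and 1276 and 1333 with progesterone. The groups were apart, and by less in the deposited signals, at 928 and 830 against 1245 and 994. The difference was 0.73 ± 0.09 (SE, n = 2 per group), a fold of 1.66, with an adjusted p of 0.00447. Iigp1, an effector that loads onto the vacuole of the parasite Toxoplasma, moved in the same way. Its normalised signals were 1005 and 920 with TGFb1 alone and 1555 and 1774 with progesterone, and its deposited signals were 1189 and 996 against 1511 and 1301. The difference of 0.78 ± 0.10, a fold of 1.72, had an adjusted p of 0.00515, and the second probe set of Iigp1 gave 0.69. These are the 2 GTPases whose groups did not overlap in the deposited signals either.

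Ifi47, the other effector, had normalised signals of 2087 and 2222 with TGFb1 alone and 3104 and 3250 with progesterone, a difference of 0.56 ± 0.08 (adjusted p = 0.00665). In the deposited signals its groups overlapped, at 2522 and 2390 against 2986 and 2420. Irgm2 had 884 and 724 against 1113 and 1171 after normalisation, a difference of 0.50 ± 0.12 (adjusted p = 0.0429). Its call was the closest of the 5 to the threshold, and its deposited signals overlapped, at 1033 and 791 against 1087 and 879. Igtp, the regulator that is also counted among the Irgm proteins, had signals of 3640 and 3304 against 4550 and 4455 after normalisation. Its difference was the smallest of the 5 at 0.38 ± 0.08 (adjusted p = 0.0267), and its deposited signals, 4326 and 3552 against 4411 and 3339, overlapped fully.

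Gbp2 and Gbp3, guanylate-binding proteins of the same vacuole defence, were less even within their groups. Gbp2 had normalised signals of 570 and 326 with TGFb1 alone and 639 and 537 with progesterone, and Gbp3 had 312 and 191 against 284 and 314. Replicate 1 of the TGFb1 group stood above replicate 2 for both genes, so that the groups overlapped. The difference was 0.43 ± 0.24 for Gbp2 (95% interval -0.12 to 0.98, adjusted p = 0.315) and 0.27 ± 0.21 for Gbp3 (-0.22 to 0.77, adjusted p = 0.48), and intervals this wide hold the size seen in the IRG genes as well as 0. A second probe set of Gbp2 gave 0.15. Without replicate 1 of TGFb1 alone the difference of Gbp2 was 0.80 (adjusted p = 0.0111), and without replicate 2 it was 0.04 (adjusted p = 0.918), so this gene turned on which of those arrays was kept. Gbp3 was -0.06 without TGFb1 replicate 2 (adjusted p = 0.852).

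**Figure D1:**
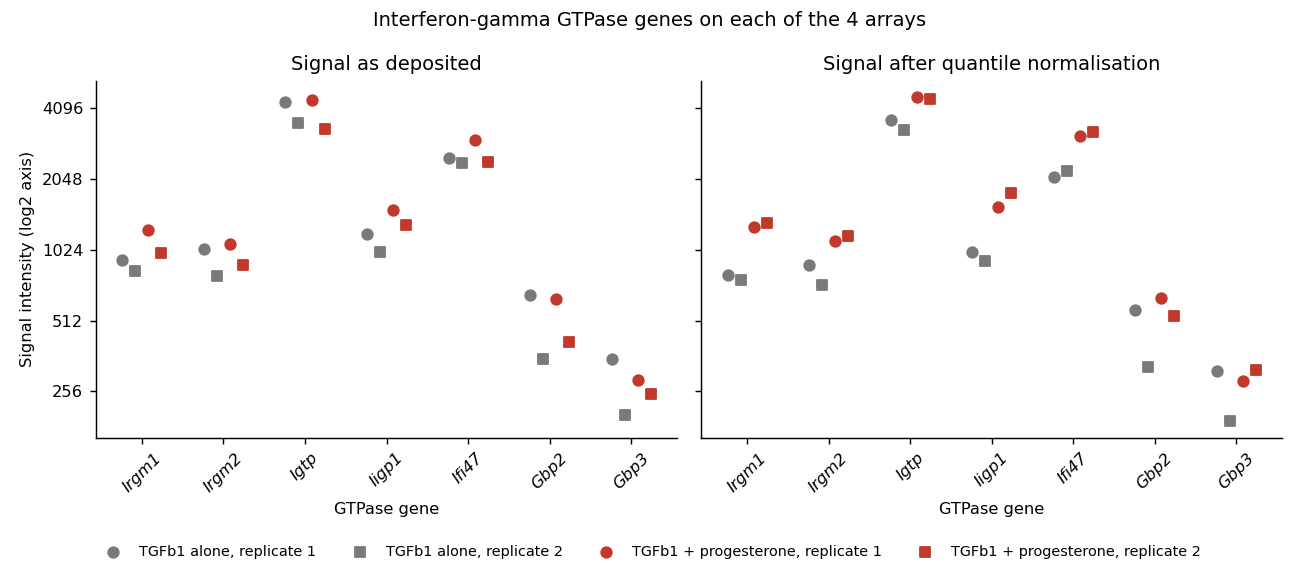
Signal of the 7 GTPase genes on each array (log2 axis), as deposited on the left and after quantile normalisation on the right, with TGFb1 alone in grey and TGFb1 plus progesterone in red, replicate 1 as circles and replicate 2 as squares. On the right the red points of the 5 IRG genes stand above the grey ones, while on the left only Irgm1 and Iigp1 have groups apart, and Gbp2 and Gbp3 overlap in both. Levels of different genes are not comparable.

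The promoters of 6 GTPases are shown because these genes differ in the interferon motifs that they carry; that of Iigp1 was not used here. The sequences are from RefSeq, assembly GRCm38.p6, and cover 130 bases before to 20 bases after the start of each gene, on the gene's own strand. Capitals mark matches to the core of the interferon-stimulated response element (GAAA, any 2 bases, GAAA) or to the gamma activated site (TTC, any 3 bases, GAA) on either strand, where matches may overlap. The regions are chr11:48871401-48871550 on the minus strand for Irgm1 and, on the plus strand, chr11:58214847-58214996 for Irgm2, chr11:58199426-58199575 for Igtp, chr11:49076457-49076606 for Ifi47, chr3:142620533-142620682 for Gbp2 and chr3:142559914-142560063 for Gbp3, which has 2 annotated starts and is shown from the most upstream one. Ifit1, a type I gene, is shown for comparison (chr19:34640759-34640908, plus strand).
Irgm1: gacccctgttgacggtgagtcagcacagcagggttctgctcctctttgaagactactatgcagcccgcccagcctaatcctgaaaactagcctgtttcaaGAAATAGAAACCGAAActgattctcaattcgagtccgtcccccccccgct
Irgm2: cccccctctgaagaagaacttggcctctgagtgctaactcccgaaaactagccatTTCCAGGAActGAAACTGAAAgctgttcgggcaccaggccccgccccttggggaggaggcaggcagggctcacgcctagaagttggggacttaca
Igtp: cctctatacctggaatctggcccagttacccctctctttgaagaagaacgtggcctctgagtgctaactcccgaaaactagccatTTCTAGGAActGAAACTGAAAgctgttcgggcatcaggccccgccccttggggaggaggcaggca
Ifi47: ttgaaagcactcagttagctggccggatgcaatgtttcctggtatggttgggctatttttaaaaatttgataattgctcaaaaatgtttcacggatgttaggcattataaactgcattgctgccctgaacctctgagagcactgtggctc
Gbp2: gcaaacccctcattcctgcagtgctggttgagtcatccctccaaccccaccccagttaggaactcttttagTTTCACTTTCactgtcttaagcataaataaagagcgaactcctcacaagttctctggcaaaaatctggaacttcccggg
Gbp3: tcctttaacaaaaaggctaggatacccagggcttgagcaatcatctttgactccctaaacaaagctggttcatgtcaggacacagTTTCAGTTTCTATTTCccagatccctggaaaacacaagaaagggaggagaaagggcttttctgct
Ifit1: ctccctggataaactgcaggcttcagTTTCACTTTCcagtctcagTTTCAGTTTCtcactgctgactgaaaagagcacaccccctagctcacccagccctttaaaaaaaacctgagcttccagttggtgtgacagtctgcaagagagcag

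Irgm1, Gbp2, Gbp3 and Ifit1 carry the response element core without the gamma site in this stretch, while Irgm2 and Igtp carry both and Ifi47 carries neither. In Irgm2 the gamma site starts 75 bases before the gene's start and the core 64 bases before it, and in Igtp they start 45 and 34 bases before, the same 11 bases apart. Aligned on the gamma site without gaps, the promoters of Irgm2 and Igtp were the same at 144 of 150 bases over the window shown for Irgm2 (96%), and at 184 of 270 bases over all that could be aligned (68.1%). Ifit1 has a pair of cores, 104 and 85 bases before its start. That no match was found in Ifi47, which rose by 0.56, says only that these letters are not in this window.

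Over the longer promoters of 300 bases (250 before and 50 after the start), the core was present in 5 of the 6 GTPases that had a promoter sequence, in 10 of 19 type I members and in 3.99% of the 27025 genes with a promoter. The gamma site was present in 2 of the 6 GTPases, in 6 of 19 type I members and in 9.55% of all genes. Of the 34 members, 27 had a promoter sequence. The members were chosen as interferon-inducible genes, so these shares describe the choice. No test was made of these shares.

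The type I genes went both ways after quantile normalisation. Of 25 genes, 19 could be tested, of which 0 rose and 1, Rtp4, fell (limma; at an unadjusted p under 0.05, 1 was higher and 2 were lower). Over all genes tested, 2.99% rose and 5.17% fell. The median difference of the type I members was -0.00056, against 0.02 over all genes tested, and 9 were above 0 and 10 below. The arrays of the groups were apart in 10 of the 19, with 4 higher and 6 lower with progesterone, where 29.8% of all genes tested were apart upward and 26% downward. Single genes spread from -0.69 to 0.43. With arrays centred on their median, where the all-gene median was -0.34, the type I median was -0.44 and 7 of the 19 fell. Under that scaling 3631 of the 10502 genes tested fell.

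Rtp4, an interferon-induced chaperone of receptors, had normalised signals of 222 and 268 with TGFb1 alone and 134 and 157 with progesterone. All arrays of the progesterone group were below those of TGFb1 alone, also in the deposited signals of 247 and 288 against 139 and 129. The difference was -0.69 ± 0.16, or 1.62-fold lower with progesterone, with an adjusted p of 0.0385. It was below 0 under all 16 alternatives and past the threshold in 10 of them. The call ended with arrays scaled to one trimmed mean (adjusted p = 0.0547), with no level filter (0.0893), without the eBayes trend (0.0775), and without TGFb1 replicate 2 (0.0918), progesterone replicate 1 (0.206) or progesterone replicate 2 (0.135).

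The other effectors did not pass the test. The Ifit genes, which bind foreign RNA, all gave values above 0, at 0.16 ± 0.24 for Ifit1, 0.16 ± 0.15 for Ifit2 and 0.43 ± 0.22 for Ifit3 (adjusted p = 0.722, 0.56 and 0.287). Ifit3 had the highest difference of the type I members tested, with its groups apart at deposited signals of 58.1 and 48.4 against 69.3 and 77.7, but it was a dim gene. Ifi35 had normalised signals of 1381 and 1320 against 1515 and 1650, a difference of 0.23 ± 0.09 that did not pass (adjusted p = 0.186), and its probe sets ranged from -0.01 to 0.23. Isg20, a nuclease that degrades viral RNA, gave -0.46 ± 0.17 (adjusted p = 0.165), and Oas1a, which makes the messenger that turns on RNase L, gave -0.57 ± 0.39 (adjusted p = 0.423). Isg20 was lower on both progesterone arrays, at deposited signals of 194 and 137 against 329 and 228. Its difference was -0.24 without TGFb1 replicate 1 (adjusted p = 0.488) and -0.66 without TGFb1 replicate 2 (adjusted p = 0.0398). Eif2ak2, the kinase PKR, gave -0.35 ± 0.20, Xaf1, which promotes cell death, gave -0.19 ± 0.12, and Bst2, which tethers virus at the cell surface, gave 0.08 ± 0.16, with adjusted p from 0.319 to 0.802.

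None of the 9 tested genes for sensing and regulation passed the test (0 also at an unadjusted p under 0.05, limma), and their median was -0.00056. Among the regulators, Irf7, which amplifies type I interferon production, gave 0.32 ± 0.16 with its groups apart (adjusted p = 0.266). Stat2 and Irf9, which act together in the type I complex, gave -0.08 ± 0.14 and -0.15 ± 0.11, with adjusted p of 0.778 and 0.434. Usp18, which shuts off the type I receptor, gave 0.08 ± 0.23 (adjusted p = 0.878). Among the RNA sensors, Ifih1 (MDA5) gave -0.30 ± 0.15 and Ddx58 (RIG-I) gave 0.15 ± 0.12, and Trim25, a ubiquitin ligase of the RIG-I pathway, gave -0.09 ± 0.11. The sensors thus pointed both ways, and the probe sets of Ddx58 themselves ran from -0.27 to 0.57.

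Parp9 and Parp14 are ADP-ribosyltransferase family members of the interferon response. Parp9 had normalised signals of 696 and 654 with TGFb1 alone and 697 and 652 with progesterone, a 95% interval of -0.24 to 0.24 around -0.00056. Its groups lay on top of each other, whereas Parp14 had 414 and 278 against 405 and 359 and an interval of -0.28 to 0.60. Of the remaining type I members, Mx1, Oas2, Oasl2 and Rsad2 were below the level filter, with deposited signals from 0.401 to 34.9. Isg15 and Ifi44 were not analysed here because no probe set carries them as its only gene.

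Irf1 and Tap1, which respond to interferon gamma strongly and to type I interferon as well, did not move with the GTPases. Irf1, a transcription factor of the interferon gamma response, had normalised signals of 1520 and 2187 with TGFb1 alone and 1455 and 1499 with progesterone, a difference of -0.30 ± 0.16 (95% interval -0.67 to 0.07, adjusted p = 0.29). Its TGFb1 arrays stood far from each other. Without replicate 1 of that group the difference was -0.55, and without replicate 2 it was -0.04. The size of the Irf1 difference thus turned on which of those arrays was kept. Tap1, the peptide transporter of antigen presentation, had 1275 and 1345 against 1267 and 1191, a difference of -0.09 ± 0.09 (adjusted p = 0.585). In the deposited signals both genes were lower on the progesterone arrays, at 1417 and 1115 against 1812 and 2363 for Irf1 and at 1236 and 895 against 1510 and 1464 for Tap1.

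**Figure D2:**
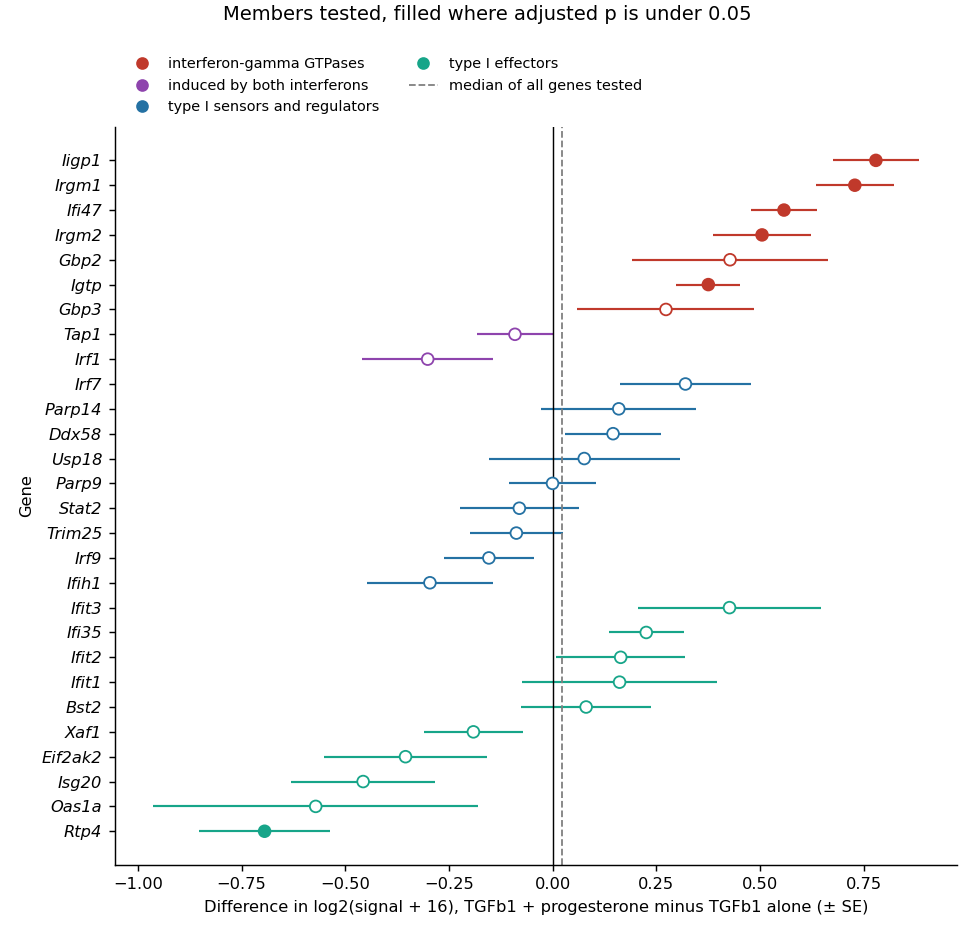
Difference in log2(signal + 16) between TGFb1 plus progesterone and TGFb1 alone for the 28 members tested, after quantile normalisation; points are limma estimates, bars are SE, filled points have an adjusted p under 0.05, and the dashed line is the median of all genes tested at 0.02. The GTPases lie from 0.27 to 0.78, the type I genes from -0.69 to 0.43, and the filled points are the 5 IRG genes and Rtp4.

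Set side by side, the GTPase median was 0.51 above the type I median, a difference that was not tested. The scaling of the arrays moved both classes. The median over all genes tested was 0.02 after quantile normalisation, 0.05 with arrays scaled to one trimmed mean, -0.22 as deposited and -0.34 with arrays centred on their median, and the GTPase median was 0.50, 0.41, 0.11 and -0.01 in the same order. Relative to the all-gene median, the GTPases were 0.48, 0.35, 0.33 and 0.33 higher, and the type I members lay -0.02, -0.03, -0.10 and -0.10 from it. All 7 GTPases were above the all-gene median under each of these scalings with all 4 arrays, and 5 of 7 were without TGFb1 replicate 2, where Gbp2 gave 0.04 and Gbp3 -0.06. The number of GTPases past the test was 5, 3, 0 and 0, and the 3 were Irgm1, Iigp1 and Ifi47. Over all genes the split of calls also moved, from 314 higher and 543 lower to 142 and 795 as deposited and to 148 and 3631 with centring.

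The IRG calls also depended on single arrays. Without replicate 2 of the progesterone group none of the 5 passed the test, with differences of 0.38 to 0.70 and adjusted p from 0.0809 to 0.308, although all 5 had an unadjusted p under 0.05. Without replicate 1 of that group 2 passed (0.36 to 0.88), without replicate 2 of TGFb1 alone 4 passed (0.32 to 0.71), and without replicate 1 all 5 passed (0.44 to 0.83). Every IRG difference was above 0 in these 4 fits. Irgm1 and Iigp1 passed under 13 of 16 alternatives each, Ifi47 under 11, Igtp under 9 and Irgm2 under 7. Their adjusted p over these alternatives ran from 2e-05 to 0.482 for Irgm1 and from 0.00191 to 0.961 for Irgm2.

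**Figure D3:**
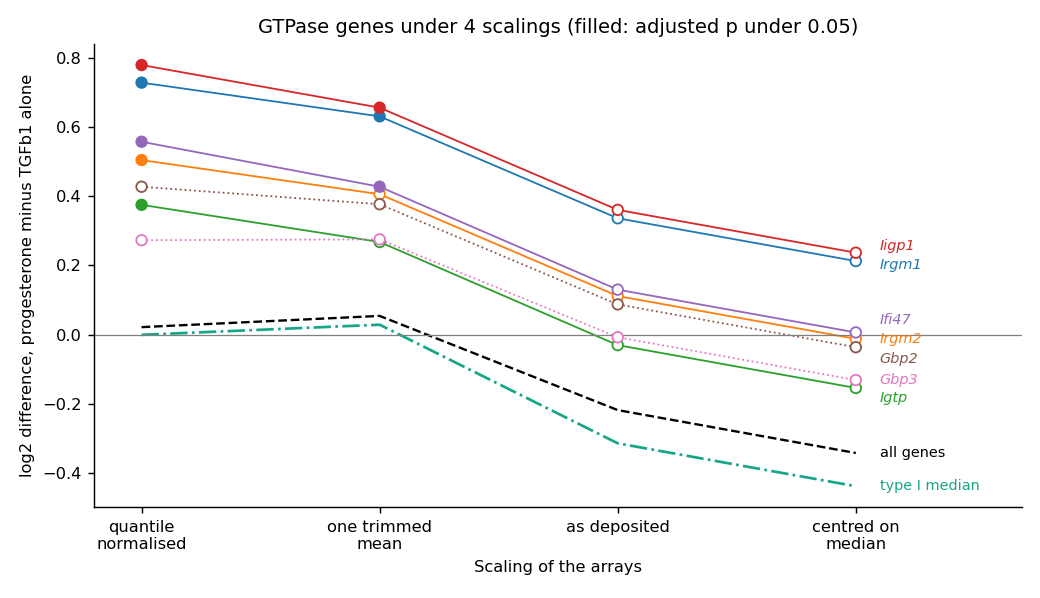
Difference in log2(signal + 16), TGFb1 plus progesterone minus TGFb1 alone, for the 7 GTPases under 4 scalings of the arrays (filled: adjusted p under 0.05), with the median of all genes tested (black dashes) and of the type I members (green). The 7 GTPases lie above the all-gene median under these 4 scalings, but with centring Irgm2, Gbp2, Gbp3 and Igtp lie below 0. With signals as deposited Igtp, at -0.03, and Gbp3, just under 0, do so as well.

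The other genes of the interferon system were taken from 6 lists with 130 genes, of which 90 could be tested. Of these, 3 rose and 12 fell, with a median of -0.02, where 2.99% of all genes tested rose and 5.17% fell. Of 5 other GTPases tested, none passed (limma; 2 were higher at an unadjusted p under 0.05). Gbp7, Gbp8 and Gbp2b gave 0.36 ± 0.14, 0.32 ± 0.12 and 0.55 ± 0.31, and Gbp6 gave -0.16 ± 0.11, with adjusted p from 0.162 to 0.412. Only Gbp6 among these guanylate-binding proteins was below 0, and its other probe set gave 0.11. The fifth, Gm4951, gave 0.14 ± 0.19 with overlapping groups (adjusted p = 0.703). Tgtp1 and Tgtp2, further IRG genes of the list, were not analysed here. Other genes induced by interferon gamma, mainly of antigen processing and presentation, gave no call in 13 tested, with a median of -0.0035 (limma; 0 higher and 2 lower at an unadjusted p under 0.05). Among them, the immunoproteasome subunits Psmb8 and Psmb9 gave -0.16 ± 0.08 and -0.28 ± 0.08 (adjusted p = 0.25 and 0.069), the class I heavy chain H2-K1 gave -0.15 ± 0.06 and its activator Nlrc5 gave 0.21 ± 0.10. The list also holds chemokine and effector genes such as Cxcl9, and 6 of its 20 genes were below the level filter.

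Of 42 other type I-induced genes tested, 10 fell and 2 rose, with a median of -0.10, where 5.17% of all genes tested fell and 2.99% rose. The strongest fall in that list was that of Ifitm3, a membrane protein that blocks virus entry, whose deposited signals were 2180 and 1104 with TGFb1 alone and 266 and 202 with progesterone. All progesterone arrays lay far below, and the difference was -2.32 ± 0.24 (adjusted p = 0.00214). The related Ifitm2 fell by 0.85 on the log2 scale (adjusted p = 0.0427), by 0.52 without TGFb1 replicate 1 (adjusted p = 0.0364), and lost its call without progesterone replicate 1 (0.127) or 2 (0.257). Ifi27l2a, a gene of the Ifi27 family, had deposited signals of 6223 and 5053 against 2621 and 2080, a difference of -0.83 ± 0.08 (adjusted p = 0.0019). Epsti1 had 462 and 406 against 142 and 124, a difference of -1.35 ± 0.13 (adjusted p = 0.00209), although its probe sets ran from -1.64 to 0.41. Ly6e, a surface protein of lymphocytes, had 5904 and 4237 against 1820 and 1261, a difference of -1.28 ± 0.12 (adjusted p = 0.0019), while its other probe set gave 0.01. Ifitm3, Ifi27l2a and Epsti1 passed under all 16 alternatives, and Ly6e under all but the one that leaves out its main probe set. These 4 were the only other interferon genes past the test without progesterone replicate 2, and without progesterone replicate 1 Oas3 passed with them.

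The other genes of that list past the test were named after their values were seen. Oas3, which makes the RNase L messenger as Oas1a does, fell by 1.60, with deposited signals of 46.6 and 66.8 against 9.45 and 7.65. Dhx58, a helicase that tunes RNA sensing, fell by 0.87 (adjusted p = 0.0389), and Pml, the scaffold of nuclear bodies, by 0.76 (0.0117). The lymphocyte surface genes Ms4a4c and Ms4a4b fell by 0.93 and 0.40 (0.0188 and 0.0123). Dhx58 passed under 8 of 15 alternatives, Pml under 13 of 16, Ms4a4c under 10 of 14 and Ms4a4b under 10 of 16. The probe sets of Pml ran from -0.76 to -0.15. Slfn1 and Slfn2, Schlafen genes linked to T cell quiescence, were the 2 that rose, by 0.66 ± 0.09 and 0.45 ± 0.10 (adjusted p = 0.00626 and 0.0312). Neither passed as deposited, at 0.27 and 0.01 (adjusted p = 0.591 and 0.982), and with centring Slfn2 gave -0.11.

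**Figure D4:**
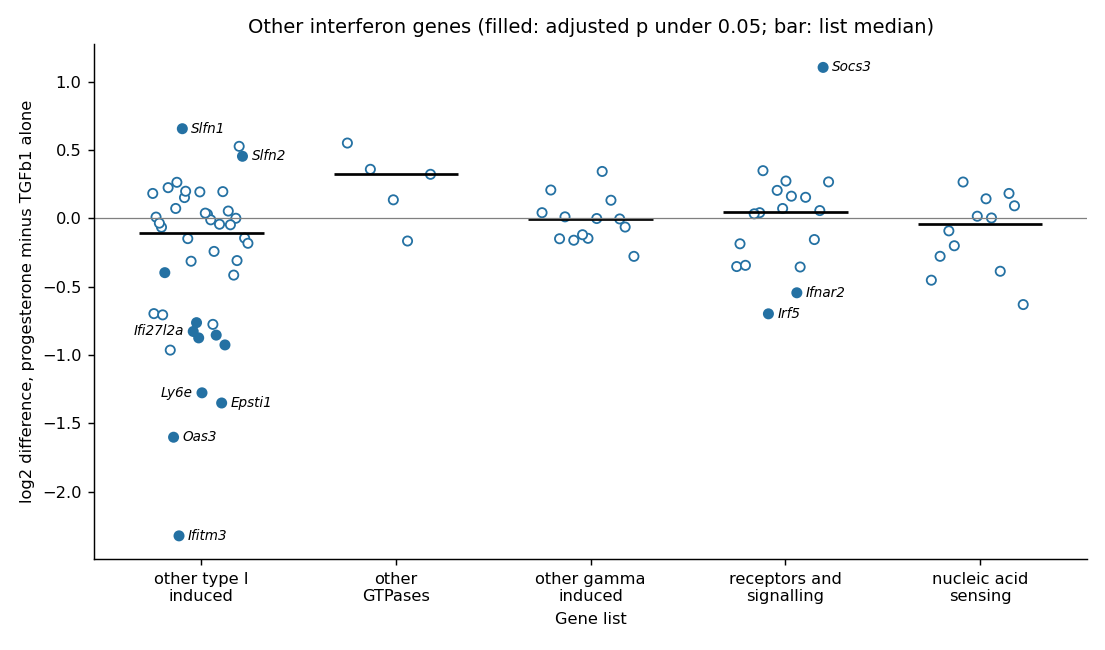
Difference in log2(signal + 16), TGFb1 plus progesterone minus TGFb1 alone, after quantile normalisation, for 90 further interferon genes in 5 lists (points spread sideways for legibility; filled: adjusted p under 0.05; bars: list medians). Filled points are most frequent below 0 in the list of other type I-induced genes, from -0.40 for Ms4a4b to -2.32 for Ifitm3. With the arrays centred on their median, 48 of the 90 passed the test, all below 0, where 3631 of the 10502 genes tested fell.

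Among receptors and signalling genes, 1 of 18 rose and 2 fell, where 2.99% of all genes tested rose and 5.17% fell. Socs3, an inhibitor of cytokine receptors that Stat3 induces, rose by 1.11 ± 0.20, with deposited signals of 1168 and 663 against 1576 and 1287 (adjusted p = 0.0151), but missed the threshold as deposited (0.68, adjusted p = 0.097) and with centring (0.56, adjusted p = 0.0557). Ifnar2, a chain of the type I receptor, had 979 and 837 against 586 and 390, a difference of -0.54 ± 0.12 (adjusted p = 0.0336). Its partner Ifnar1 gave -0.35 ± 0.10 (adjusted p = 0.0775), with 0.45 in another probe set. The receptor chains of interferon gamma gave 0.04 ± 0.09 for Ifngr1 and 0.06 ± 0.16 for Ifngr2, with 0.45 in another probe set of Ifngr2. Ifngr1 nevertheless reached -0.49 with centring, where the all-gene median was -0.34. Irf5, a transcription factor of the sensing pathways, fell by 0.70 (adjusted p = 0.0489), but another of its probe sets gave 0.75. Socs1, the main inhibitor of interferon gamma signalling, gave 0.35 ± 0.17 (adjusted p = 0.266), and the phosphatase Ptpn6 gave -0.36 ± 0.09 (adjusted p = 0.0572).

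Of 12 genes for sensing nucleic acids, 0 passed (limma; 1 higher and 2 lower at an unadjusted p under 0.05), with a median of -0.04. The adaptor Ticam1 gave -0.63 ± 0.20, the DNA sensor Cgas -0.45 ± 0.19 and its adaptor Sting1 -0.28 ± 0.10, while the kinase Tbk1 gave 0.27 ± 0.09, with adjusted p from 0.105 to 0.211. The interferon genes themselves were dim. All 7 with a probe set lay below the level filter, with deposited signals from 0.331 to 27.2. Ifng had 9.23 and 10.9 with TGFb1 alone and 1.31 and 10.4 with progesterone, and no comparison of interferon production was made from such dim signals.

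Marker genes of other cells moved between the same groups. Monocyte and macrophage markers, 9 of 10 with a probe set, summed to 495 and 281 in normalised signal with TGFb1 alone and 1024 and 1184 with progesterone. On the progesterone arrays most of that sum was Lyz2, the lysozyme of myeloid cells, whose deposited signals were 189 and 53.5 against 676 and 588 (2.69 ± 0.39, adjusted p = 0.00726). The defining marker Csf1r gave 0.17 ± 0.29 (adjusted p = 0.774), and Cd14 was below the level filter at 14.1 and 3.08 against 36.5 and 25.9, and no marker of that list other than Lyz2 passed. Cd68 gave 0.66 ± 0.21, Adgre1 0.57 ± 0.27, Tyrobp 0.53 ± 0.27 and Fcgr1 0.24 ± 0.22, each with the groups apart upward, while Itgam gave -0.81 ± 0.39, apart downward, with adjusted p from 0.101 to 0.563. Groups were apart upward for 29.8% of all genes tested and downward for 26%. Natural killer markers, 4 of 5 with a probe set, summed to 857 and 901 against 520 and 525, with Klrd1 fallen by 0.67 (adjusted p = 0.0165). Klrk1 and Eomes both gave -0.76 and did not pass (adjusted p = 0.0531 and 0.108). Ncr1 went the other way, at 0.44 with its groups apart upward, but was below the level filter. Plasmacytoid dendritic cell markers summed to 301 and 346 against 451 and 472. Of the 5 tested, only Ccr9 passed, with a rise of 0.82 (adjusted p = 0.0428). Tcf4, Klk1 and Pacsin1 gave 0.49, 0.33 and 0.31, and Cox6a2 gave -0.22. Of those too dim to be tested, Siglech gave -0.08, while Spib and Ly6d gave 0.63 and 0.74. Conventional dendritic markers summed to 94.5 and 99.8 against 144 and 98.8, and B cell markers to 120 and 106 against 213 and 128. CD8 T cell markers summed to 143 and 170 against 154 and 102. The part of these cells in the differences of the GTPases and of the other interferon genes was not tested.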

How the data were processed

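The deposited values are linear signal intensities for which the authors used MAS5, according to the submitters' processing notes; its version and the scaling target are not given here. Sample titles supplied groups and replicate numbers. The members, lists and tests were chosen with earlier results of these data known.

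Because 2%-trimmed means differed by more than 5% (highest over lowest 1.43), the 4 arrays were quantile normalised, and log2(signal + 16) was taken. The 64 control probe sets were left out of 45101, and 22518 probe sets with a mean above the median of all were kept. Of 45037 probe sets, 34945 had 1 gene, 932 several and 9160 none in the platform annotation, and symbols were updated by Entrez identifier through RefSeq (GRCm38.p6). Groups were compared with limma 3.58.1 in R 4.3.3 (lmFit, eBayes with an intensity trend, 2 residual and 5.51 prior degrees of freedom), which was tested on simulated data. The number of arrays limits the precision, and no detection call was used.

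Values are given by array for members past the test, the GTPases and the 6 brightest members. For each other list up to 4 genes by size of the moderated statistic are named, with a few receptors and marker genes fixed by name. Alternatives changed the pseudocount, scaling, level filter, eBayes settings, choice of probe set, threshold, replicate block and each array.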

Additional observations from a re-analysis of the deposited data

How the results depend on the processing

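Counts past the test are given here as they were with each alternative. Over all genes (857) they were 3779 with arrays centred on their median, 488 with no filter, 464 without the eBayes trend, 1362 at an adjusted p under 0.1 and 246 to 1215 with 1 array left out. Members risen (5), all of them GTPases, numbered 0 as deposited, 3 at one trimmed mean, 0 with centring, 3 with no filter, 2 without the trend and 0 to 6 with 1 array left out, and the GTPase counts were the same. Members fallen (1) numbered 0 at one trimmed mean, 9 with centring, 0 with no filter, 0 without the trend and 0 to 2 with 1 array left out, of which type I members were 0, 7, 0, 0 and 0 to 1. The other interferon genes (15) numbered 48 with centring, 8 with no filter and 4 to 16 with 1 array left out. The type I median was -0.31 as deposited, -0.44 with centring and -0.0805 in the upper 25% by level, and the GTPase median was 0.11 and -0.0121 under the first pair. Signs turned for some genes that passed the test in the main setting or in the alternative named. These were Irgm2 with centring (-0.0121), Igtp as deposited (-0.0303) and with centring (-0.15), and Irf5 with the mean of its probe sets (0.0248). Ly6e turned without the _x_at and _s_at sets (0.0106), and Slfn2, Ifngr1 and Cd3d with centring (-0.11, -0.49 and -0.36). Members whose sign turned with no call in the main setting or in the alternative that turned it were Gbp2, Gbp3, Ifi35, Ifit2, Bst2, Irf7, Ddx58, Parp9, Parp14, Usp18 and Stat2. Of these, Gbp2 and Parp9 passed under other alternatives. The causes were not tested. Same-numbered arrays share only a number (r = 0.205 over genes, 2 pairs), and with the replicate block 1936 genes, 6 members up, 3 down, 2 type I members and 24 other interferon genes passed. The 2 arrays per group limit all of these counts, and signals near the level filter have no detection limit here.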

Other observations

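Outside the members, the arrangement of interferon motifs in Irgm2 and Igtp was searched for in all 32851 RefSeq promoters (GRCm38.p6), a search chosen after the sequences were seen. A gamma activated site followed at 11 bases, first base to first base, by the response element core was found in 5 promoters (0.0152%), those of Irgm2, Igtp, Tgtp1, Tgtp2 and Gm12185, all on chromosome 11. Only the core in its GAAA form on the gene's own strand was counted, so the mirrored order was not searched. Tgtp1 and Tgtp2 are IRG genes too, and neither was analysed on the arrays here.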
